A study of Mus musculus with 2 samples.

Results

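Osteoclast lineage cells were picked from the single-cell libraries of fetal bone marrow by their own transcripts. A kept cell counted as one when it held at least 10 UMIs of Ctsk, Acp5 and Atp6v0d2 together and at least 1 UMI of Csf1r and Tyrobp together. A UMI (unique molecular identifier) marks 1 captured transcript molecule. The rule found 262 cells among 12356 kept cells, which had more than 200 and fewer than 5000 genes and under 30% of UMIs from mitochondrial genes. Of these, 160 of 5736 kept cells came from the WT library (2.79%, 95% exact binomial interval 2.38 to 3.25%) and 102 of 6620 from the Bmx-CreER Wls library (1.54%, 1.26 to 1.87%). Both shares refer to the cells left after digestion, depletion and filtering.

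Femoral bone marrow of C57BL/6 embryos at E18.5 was crushed and digested, committed haematopoietic cells were depleted magnetically, and the remaining cells were captured with the BD Rhapsody whole-transcriptome system. The WT library was labelled wild type. The Bmx-CreER Wls library came from embryos in which a tamoxifen-inducible Cre under the Bmx promoter, active in arterial endothelial cells, removes floxed Wls, a gene needed for the secretion of Wnt ligands. There was 1 library per condition, the number of embryos in each is not given in the sources used here, and tamoxifen is not named for the WT library. No test between conditions was therefore possible, and all intervals below are 95% intervals that cover counting error only.

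The libraries held 22708005 and 24704991 UMIs from 5998 and 6825 barcodes. Levels are given as CPM, the summed UMIs of a gene scaled to 1000000 UMIs of the group of cells. Wls itself, the targeted gene, was at 8.59 CPM in WT and 11 CPM in Bmx-CreER Wls (11 and 9 UMIs), against 143 and 116 CPM in the other kept cells. The deletion is aimed at Bmx-expressing arterial cells, so these totals do not check it. Sex-linked transcripts differed between the libraries: Xist was at 23.4 CPM in WT and 86.8 CPM in Bmx-CreER Wls in osteoclast lineage cells, and the Y-linked Ddx3y at 57 and 14.7 CPM. The libraries had 49 barcode sequences in common, of which 1 belonged to an osteoclast lineage cell in each library.

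Osteoclasts are the cells that resorb bone. They arise from myeloid precursors under the cytokines M-CSF and RANKL, which act through the receptors Csf1r and RANK (Tnfrsf11a) and induce the transcription factor Nfatc1. Precursors fuse into mature osteoclasts. These attach to bone through integrin-rich podosomes, pump protons through the vacuolar ATPase (V-ATPase) and release cathepsin K (Ctsk) and the metalloproteinase Mmp9 onto the matrix. In the fetal femur they help to open the marrow cavity in mineralised cartilage.

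Within these cells, resorption and acidification genes stood on the high-Ctsk side and cell cycle genes on the low-Ctsk side, so promoters of both kinds are printed here before their values. The sequences are the 250 bases before the start of the first RefSeq entry of each gene (GRCm38.p6, read 5′ to 3′ on the gene's strand). Motifs were searched on both strands, and capitals mark them: GAGGAA (core of PU.1 sites) in Ctsk and Oscar, GGAAA (core of NFAT sites) in Oscar, the palindromic E-box CACGTG in Atp6v1a, and the CCAAT box CCAAT with the CHR element TTTGAA in Mki67 and Ube2c. TTTGAA also occurs in Ctsk and Atp6v1a and GGAAA in Atp6v1a, where they are not in capitals. GGAAA can overlap GAGGAA, and a pair of CCAAT boxes on opposite strands overlaps in Ube2c. The promoter of Ctsk is chr3:95498960-95499209 (plus strand), and that of Oscar, an osteoclast receptor that signals beside RANK, is chr7:3616158-3616407 (minus strand). The V-ATPase subunit gene Atp6v1a is represented by chr16:44139260-44139509 (minus strand), the proliferation marker Mki67 by chr7:135716380-135716629 (minus strand) and Ube2c, a ubiquitin-conjugating enzyme of mitotic exit, by chr2:164769679-164769928 (plus strand).
Ctsk: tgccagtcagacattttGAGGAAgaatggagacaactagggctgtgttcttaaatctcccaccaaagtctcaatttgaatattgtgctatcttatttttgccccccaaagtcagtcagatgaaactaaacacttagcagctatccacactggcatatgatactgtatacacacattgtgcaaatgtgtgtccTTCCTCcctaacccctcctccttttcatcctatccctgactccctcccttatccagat
Oscar: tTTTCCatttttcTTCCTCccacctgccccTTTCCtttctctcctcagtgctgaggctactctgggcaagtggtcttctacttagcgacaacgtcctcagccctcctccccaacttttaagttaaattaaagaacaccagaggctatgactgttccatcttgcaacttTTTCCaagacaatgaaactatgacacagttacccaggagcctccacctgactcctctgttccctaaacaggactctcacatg
Atp6v1a: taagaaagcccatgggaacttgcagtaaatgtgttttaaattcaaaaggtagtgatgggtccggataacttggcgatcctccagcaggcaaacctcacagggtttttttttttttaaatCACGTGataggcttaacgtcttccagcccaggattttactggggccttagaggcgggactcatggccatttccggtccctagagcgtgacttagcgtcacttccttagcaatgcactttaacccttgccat
Mki67: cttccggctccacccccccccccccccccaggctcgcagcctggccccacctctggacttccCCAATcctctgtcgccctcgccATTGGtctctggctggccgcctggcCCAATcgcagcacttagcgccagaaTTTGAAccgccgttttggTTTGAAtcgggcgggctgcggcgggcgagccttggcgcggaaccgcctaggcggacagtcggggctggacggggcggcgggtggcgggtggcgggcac
Ube2c: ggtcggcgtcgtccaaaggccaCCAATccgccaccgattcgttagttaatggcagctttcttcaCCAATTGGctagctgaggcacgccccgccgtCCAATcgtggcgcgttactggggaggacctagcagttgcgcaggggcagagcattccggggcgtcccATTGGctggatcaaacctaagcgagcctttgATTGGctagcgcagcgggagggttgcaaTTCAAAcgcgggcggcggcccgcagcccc

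Of the 3595 genes measured along Ctsk (described further on), 2734 had a promoter in the same set. A CCAAT box was in 24 of the 30 promoters at hand for the S phase and mitosis list, against 34.5% of all 27025 promoters and 36.9% of those of the measured genes. TTTGAA was in 8 of these 30, against 16.3% of all promoters and 9.69% of those of the measured genes. CACGTG was in 11 of 48 promoters of the V-ATPase, resorption and lysosomal lists, the lysosomal one drawn up after its values were seen. V-ATPase promoters alone had it in 2 of 11. It was in 1 of the 30 cell cycle promoters and in 6.05% of all promoters (10.2% of those of the measured genes). By direction along Ctsk, it was in 19 of 173 promoters of higher genes and 38 of 371 of lower genes, shares near that of the measured genes. GGAAA was in 97 of 173 promoters of genes higher and in 212 of 371 promoters of genes lower in high-Ctsk cells. Its share was 55.6% of all promoters and 54.5% of those of the measured genes. GAGGAA was in 44 and 96 of the same sets, against 23.1% of all promoters and 22.4% of those of the measured genes. The AP-1 letters TGANTCA were in 13 of 173 and 13 of 371, against 6.87% of all and 4.21% of those of the measured genes. These are matches of letters in a short window, not binding sites.

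The rule used 5 genes, and their values describe the cells without being a finding. The summed UMIs of Ctsk, Acp5 and Atp6v0d2 ran from 11 to 1055 per cell (median 114.5) in WT and from 10 to 836 (median 101) in Bmx-CreER Wls. The lowest members held 11, 11, 12, 13 and 13 UMIs in WT and 10, 13, 14, 14 and 16 in Bmx-CreER Wls. The nearest cells outside, which had a Csf1r or Tyrobp UMI, held 8, 5, 5, 4 and 4 in WT and 7, 6, 6, 6 and 4 in Bmx-CreER Wls. Among all kept cells with a Csf1r or Tyrobp UMI, the rule took 160 of 354 in WT (45.2%, 39.9 to 50.5%) and 102 of 267 in Bmx-CreER Wls (38.2%, 32.3 to 44.3%). Of the others, 163 of 194 and 137 of 165 had no UMI of the 3 osteoclast genes, so few cells lay near the threshold.

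Osteoclast lineage cells were rich in RNA. Their median depth was 7447 UMIs (912 to 18347) in WT and 8274.5 UMIs (994 to 23613) in Bmx-CreER Wls, against 3079 and 3045 in the other kept cells. Other kept cells with a Csf1r or Tyrobp UMI lay between, with medians of 5058 UMIs in WT and 4535 in Bmx-CreER Wls. Osteoclast lineage cells also carried a higher mitochondrial share than all other kept cells, with medians of 7.81% and 7.77% against 4.41% and 3.72%. Together they held 93.9% of all Ctsk UMIs in kept WT cells and 91.2% in Bmx-CreER Wls. Of Mmp9 UMIs, which the rule did not read, they held 84.7% and 82.7%.

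The label was checked on the markers outside the rule. Mmp9, a secreted protease of osteoclasts, was at 14192 CPM in WT and 10908 CPM in Bmx-CreER Wls and had a UMI in 159 of 160 and 102 of 102 cells. Ocstamp, which encodes a membrane protein required for osteoclast fusion (GRCm38 chr2:165395450-165400394), was at 671 CPM (627 to 718) in WT and 641 CPM (587 to 698) in Bmx-CreER Wls. Outside these cells 2 Ocstamp UMIs in WT and 11 in Bmx-CreER Wls were counted. A UMI of Ocstamp was seen in 133 of 160 and 88 of 102 cells. It was seen in 0 of 2527 and 2 of 4256 Col2a1-rich cells (at least 10 Col2a1 UMIs), chondrocytes that should lack it and whose median depth was 2902 and 2894 UMIs. Thinned to 2000 UMIs, 0 of 1923 WT Col2a1-rich cells had one (604 shallower cells left out), which at 3 counts allows a share of up to 0.156% of cells with a UMI. Both markers were thus present in nearly all or most of the cells of each library.

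Markers of other cells were mostly low or absent, with the exception of some monocyte markers. C1qa, Mrc1, Ccr2, Cx3cr1 and Il1b had 0 UMIs in the 262 cells, and Lyz2 had 1 UMI in WT and 3 in Bmx-CreER Wls. The 15 macrophage markers summed to 28.1 CPM in WT and 40.4 CPM in Bmx-CreER Wls, against 13759.6 and 13039 CPM in macrophages of the same libraries, which were chosen by the C1q genes among these markers. Of 13 monocyte markers, S100a4, Cd68, Itgam and Ctss were present and at least 2-fold higher than in the other kept cells, and 5 were lower. The monocyte list summed to 4347 CPM in WT and 4912 CPM in Bmx-CreER Wls, against 327 and 334 CPM in the other kept cells and 10749 and 13080 CPM in macrophages. Endothelial markers summed to 64 UMIs in all WT cells and 6 in all Bmx-CreER Wls cells of the lineage, and neutrophil and granule markers to 2 and 21. Chondrocyte, osteoblast and stroma, endothelial and erythroid markers together exceeded 2% of UMIs in 6 WT cells (up to 15.3%) and 2 Bmx-CreER Wls cells (up to 5.32%). Of these 6 WT cells, 3 were low in Ctsk, 1 was intermediate and 2 were high, and both Bmx-CreER Wls cells were low.

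Against all other kept cells, osteoclast lineage cells carried higher levels of genes for fusion, attachment, acid secretion and RANK signalling. Of 12477 genes with at least 100 UMIs, 1353 (10.8%) were at least 2-fold higher in both libraries, while the median log2 ratio of all these genes was -0.29 in WT and -0.14 in Bmx-CreER Wls. Most of the other kept cells had no Csf1r or Tyrobp UMI (194 in WT and 165 in Bmx-CreER Wls had one), and macrophages are compared below. The comparison with all other kept cells follows from how the cells were chosen and is a description. The fusion genes Ocstamp and Dcstamp, the receptor gene Oscar and the metallothionein gene Mt3 led it. Dcstamp was at 713 CPM in WT and 638 CPM in Bmx-CreER Wls, 1662-fold (872 to 3646) and 1254-fold (712 to 2443) the level of the other cells. Oscar was at 315 and 280.1 CPM, and all other kept cells together held 3 UMIs of it in WT and 8 in Bmx-CreER Wls. Mt3, a metal-binding metallothionein best known from brain, was at 311 and 432 CPM, against 3 and 8 UMIs elsewhere.

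The transporter genes Slc37a2 and Slc9b2 followed. Slc37a2, a sugar-phosphate transporter of secretory lysosomes, was at 533 and 629.9 CPM, 746-fold (449 to 1340.2) and 989.7-fold (594 to 1781) the level of the other cells. Slc9b2, a sodium-proton exchanger, was at 376 and 338 CPM. Tnfrsf11a, the receptor RANK, was at 237 and 252 CPM, 160.1-fold (110.5 to 239.8) and 148-fold (105 to 214) the level of the other cells. Ccl9, a chemokine made by osteoclasts, was at 2084 and 2619 CPM, and its receptor gene Ccr1 at 379 and 330.2 CPM. Other genes among the 20 with the largest ratios were Bdh2, Clec4a2, Cd68, Rufy4, Prdm1, Clec12a, Mst1r, S100a4, 4930506M07Rik and Mmp9, with ratios from 72.1 (4930506M07Rik in WT) to 593 (Bdh2 in Bmx-CreER Wls).

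**Figure D1:**
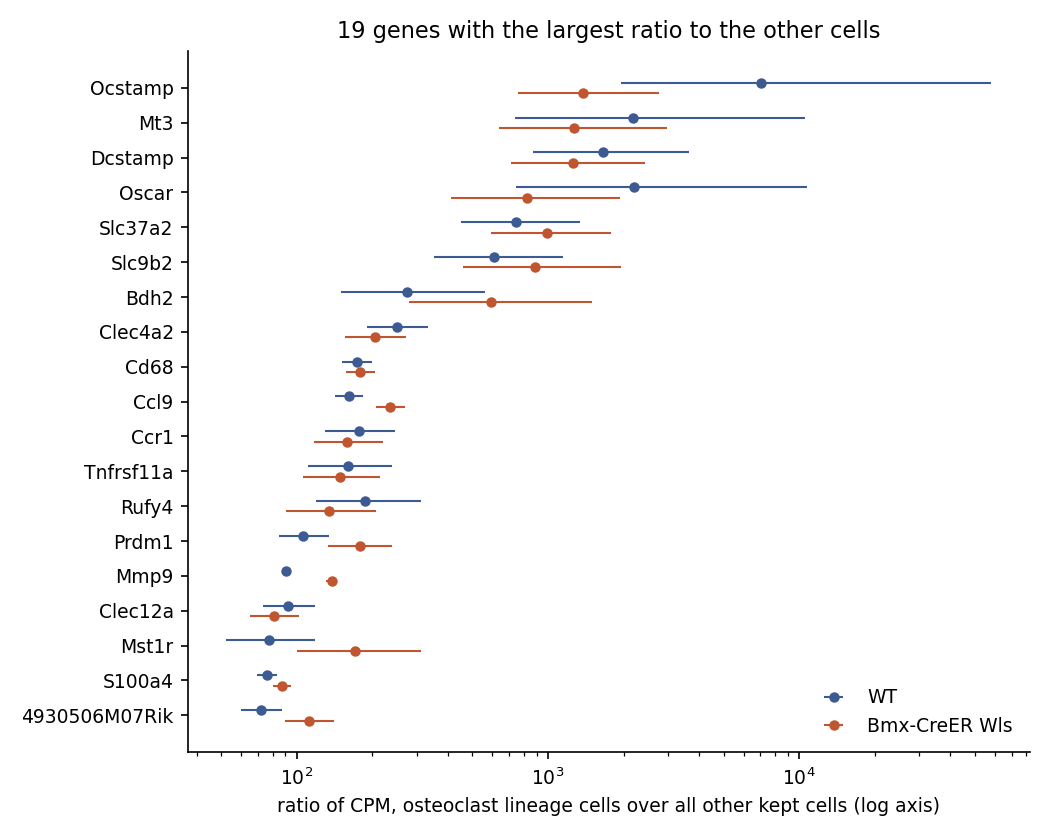
Ratio of summed CPM in osteoclast lineage cells to that in all other kept cells (log axis) for the 19 genes with the largest ratios, in WT (blue) and Bmx-CreER Wls (orange), with points for the ratio and bars for 95% counting intervals. All 19 genes lie far to the right of equal levels in both libraries, and Ocstamp in WT, where the other cells held 2 UMIs, lies farthest.

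By function, 14 of 15 V-ATPase subunits were past 2-fold against the other cells, the exception being Atp6v0a1 with 5 UMIs in each library. So were 13 of 16 resorption genes, 14 of 16 genes of RANK signalling and receptors, 14 of 19 podosome genes, 13 of 16 osteopetrosis genes (genes whose loss leaves bone unresorbed) and 9 of 15 osteoclast transcription factors. Respiration genes were past 2-fold higher in 37 of 38 cases, but glycolysis genes in 1 of 15 (Aldoa). Respiration genes summed to 27816 CPM in WT and 29039 CPM in Bmx-CreER Wls in osteoclast lineage cells, against 8241 and 7802 CPM in the others. The glycolysis sum was also higher, by less, at 5423 and 5729 CPM against 2963 and 3420 CPM. Over all 12477 genes, 2781 (22.3%) were at least 2-fold lower in both libraries. Of the 7 repressors of osteoclast genes 0 were higher and 3 were lower, Id1 and Cebpa among them, and with so few genes this is not a result about the list. Of 17 measured signals listed as secreted by osteoclasts, Sema4d, Pdgfb and Ccl9 were higher and 6 were lower, beside 10.8% and 22.3% of all genes, and nothing about the list is read from these few genes. Sema4d, a semaphorin that acts on osteoblasts, was at 653 and 701 CPM, against 30.7 and 21.8 CPM in the others. Pdgfb, a growth factor for the cells around vessels, was at 225 and 219 CPM.

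Macrophages, the nearest cell type, were kept cells outside the rule with a UMI of Csf1r, a UMI of Tyrobp and at least 5 UMIs of the C1q genes, 12 cells in WT and 13 in Bmx-CreER Wls (median depths of 4556 and 3633 UMIs). So few cells give wide counting intervals. Of 3774 genes, 378 (10%) were at least 2-fold higher and 231 (6.12%) at least 2-fold lower in osteoclast lineage cells in both libraries. With a lower filter of 20 UMIs per gene, 389 were higher and 1715 lower. Which direction held more genes thus depended on the filter, and nothing is read from the balance. Nfatc1 was at 2095 and 2177 CPM in osteoclast lineage cells and at 111 and 101 CPM in macrophages. Carbonic anhydrase 2 (Car2), which supplies protons for acid secretion, was at 1452 and 1443 CPM and had 0 UMIs in the macrophages. Itgav, the integrin chain that pairs with Itgb3 in podosomes, was at 1219 and 1202 CPM against 129 and 142 CPM. V-ATPase subunits were higher in 10 of 13, transcription factors in 7 of 11 and respiration genes in 30 of 37 cases. Resorption genes were higher in 8 of 14 cases and lower in 3, and podosome genes higher in 6 of 16 and lower in 0. Fusion genes were higher in 3 of 9 cases and lower in 1. In the RANK list 1 of 15 was higher and 2 were lower, and Tnfrsf11a was not past 2-fold in both libraries.

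The cell types differed in their lysosomal proteases. Ctsb was lower in osteoclast lineage cells (1424 and 1147 CPM) than in macrophages (7111 and 7208 CPM), as were Ctsl and the legumain gene Lgmn. Ctss, a protease of antigen processing, was at 112 and 121 CPM against 1367 and 1883 CPM. Fcer1g, the signalling chain that Oscar uses, was at 760.4 and 729 CPM against 1921 and 2592 CPM. Lamp1, a protein of the lysosomal membrane, was at 107 and 90.5 CPM against 1496 and 1296 CPM. The lysosomal genes went both ways. In a list drawn up after its values were seen, 4 of 26 were higher and 6 lower than in macrophages. Over all measured genes the shares were 10% and 6.12%, and their order turned with a lower UMI filter.

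To follow the cells from low to high Ctsk, they were ordered by Ctsk UMIs per 10000 UMIs of the cell and cut into 3 groups at 73.3 and 160.8. Low-, middle- and high-Ctsk cells numbered 50, 60 and 50 in WT and 37, 27 and 38 in Bmx-CreER Wls. Ctsk itself, used for the order, was at 3699.5, 10649 and 31241 CPM in WT and 3406, 10641 and 26959 CPM in Bmx-CreER Wls. The rule read Ctsk with Acp5 and Atp6v0d2, so cells with little Ctsk needed these to pass. Both were nevertheless lower in them: Acp5 was at 1162, 2305 and 6390.2 CPM in WT and 1146, 2420.4 and 6097 CPM in Bmx-CreER Wls. Median depths were 6832.5, 7279 and 9062.5 UMIs in WT and 8403, 7468 and 8650 in Bmx-CreER Wls. The mitochondrial share was higher with Ctsk, with medians of 6.92%, 7.76% and 11.8% in WT and 6.28%, 7.2% and 9.97% in Bmx-CreER Wls, and its part in the results was not tested.

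Along Ctsk more genes were lower than higher. Of 3595 genes with at least 100 UMIs in these cells, 235 (6.54%) were at least 2-fold higher and 479 (13.3%) at least 2-fold lower in high-Ctsk than in low-Ctsk cells of both libraries. The median log2 ratio of all measured genes was -0.28 in WT and -0.24 in Bmx-CreER Wls, and the ratios below are to be read against this shift. With mitochondrial, haemoglobin and rule genes left out of the total, 305 genes were higher and 365 lower. In cells with at least 1000 UMIs and a mitochondrial share under 10% (112 in WT and 80 in Bmx-CreER Wls), 156 were higher and 191 lower. No gene was 2-fold higher in one library and 2-fold lower in the other. Of the 235 and 479 genes, 199 and 401 had middle-Ctsk cells in between in both libraries.

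**Figure D2:**
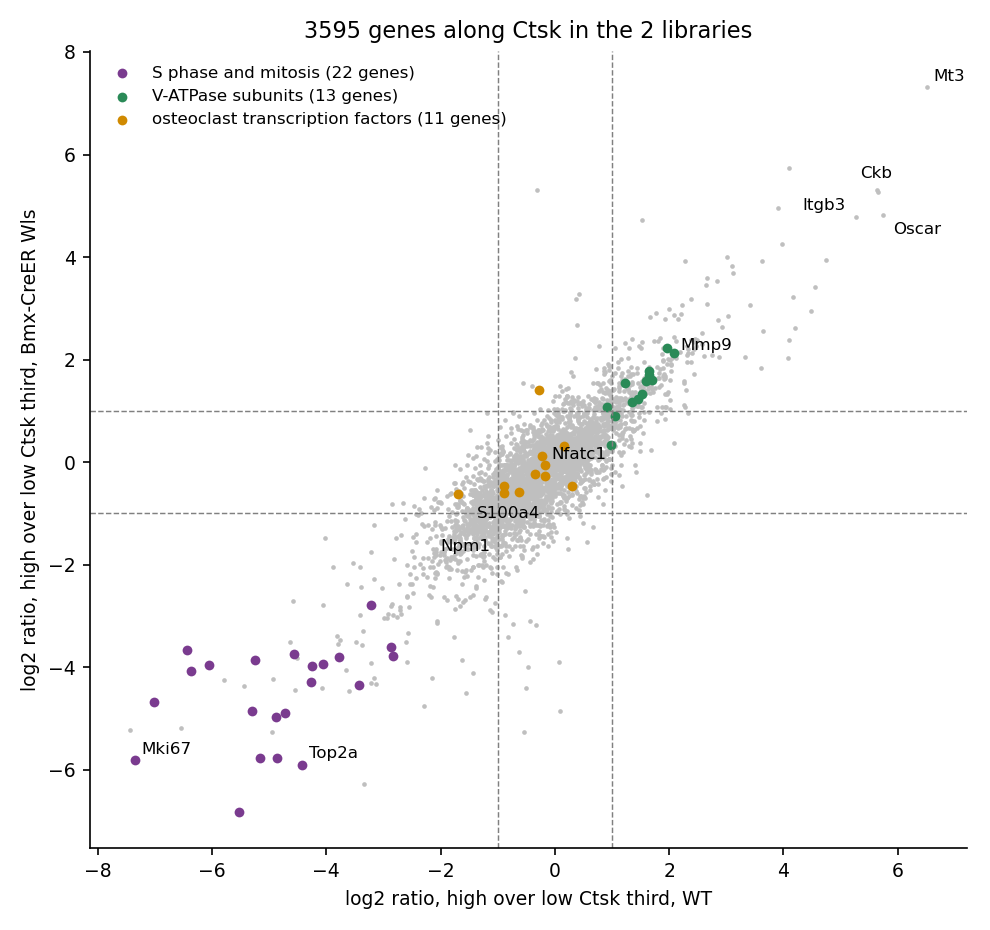
Log2 ratio of summed CPM in high-Ctsk over low-Ctsk cells for 3595 genes, in WT (x axis) and Bmx-CreER Wls (y axis), with dashed lines at 2-fold and a group without UMIs set to 3 counts. The 22 S phase and mitosis genes lie at the lower left, the 13 V-ATPase subunits to the upper right of the centre and the 11 transcription factors around the middle.

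Genes for resorption and acid secretion were higher with Ctsk in 12 of 12 measured cases, beside 6.54% of all measured genes. The 16 listed genes together were at 9267, 17934 and 36853 CPM in WT and 8469.6, 16252 and 31575 CPM in Bmx-CreER Wls. The high-to-low ratio was 3.98 (3.83 to 4.13) in WT and 3.73 (3.57 to 3.9) in Bmx-CreER Wls. Mmp9 was at 5599, 10704 and 23842 CPM in WT and 4393, 9136 and 18375 CPM in Bmx-CreER Wls. Snx10, a sorting nexin whose loss causes osteopetrosis, had most of its step between low and middle Ctsk, at 526, 1942 and 2858 CPM in WT and 558, 1938 and 2820.5 CPM in Bmx-CreER Wls. Clcn7, the chloride-proton exchanger that accompanies the proton pump, was 3.74-fold (2.4 to 6.05) and 3.91-fold (2.48 to 6.39) higher at high Ctsk. Ctsb had its larger step late, at 514, 805 and 2680 CPM in WT and 402, 784 and 2107 CPM in Bmx-CreER Wls.

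The V-ATPase subunits stood higher as a complex. The 15 listed subunits together summed to 8501, 14219 and 22499.8 CPM in WT and 8513, 13734 and 22509 CPM in Bmx-CreER Wls, 2.65-fold and 2.64-fold from low to high Ctsk. Of the 13 with enough UMIs to be measured along Ctsk, 10 were past 2-fold in both libraries, beside 6.54% of all measured genes. Atp6v1a, the catalytic subunit whose promoter is shown above, was at 938, 1899.8 and 3679 CPM in WT and 734, 1836 and 3447 CPM in Bmx-CreER Wls. Tcirg1, which encodes the a3 subunit of the pump at the resorbing membrane, was at 333, 478 and 1080.4 CPM in WT and 379, 394 and 1025 CPM in Bmx-CreER Wls. The exceptions were Atp6v1b2 (1.88-fold and 2.1-fold), Atp6v0d1 and Atp6ap2. Among 24 measured lysosomal enzymes and membrane proteins, a list drawn up after its values were seen, 14 were higher, beside the same 6.54%. Hexa, a subunit of beta-hexosaminidase, was 7.24-fold and 6.86-fold higher, and Lamp1 was the 1 gene of the list that was lower, at 181, 120.1 and 39.8 CPM in WT and 146, 92.5 and 35.3 CPM in Bmx-CreER Wls.

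**Figure D3:**
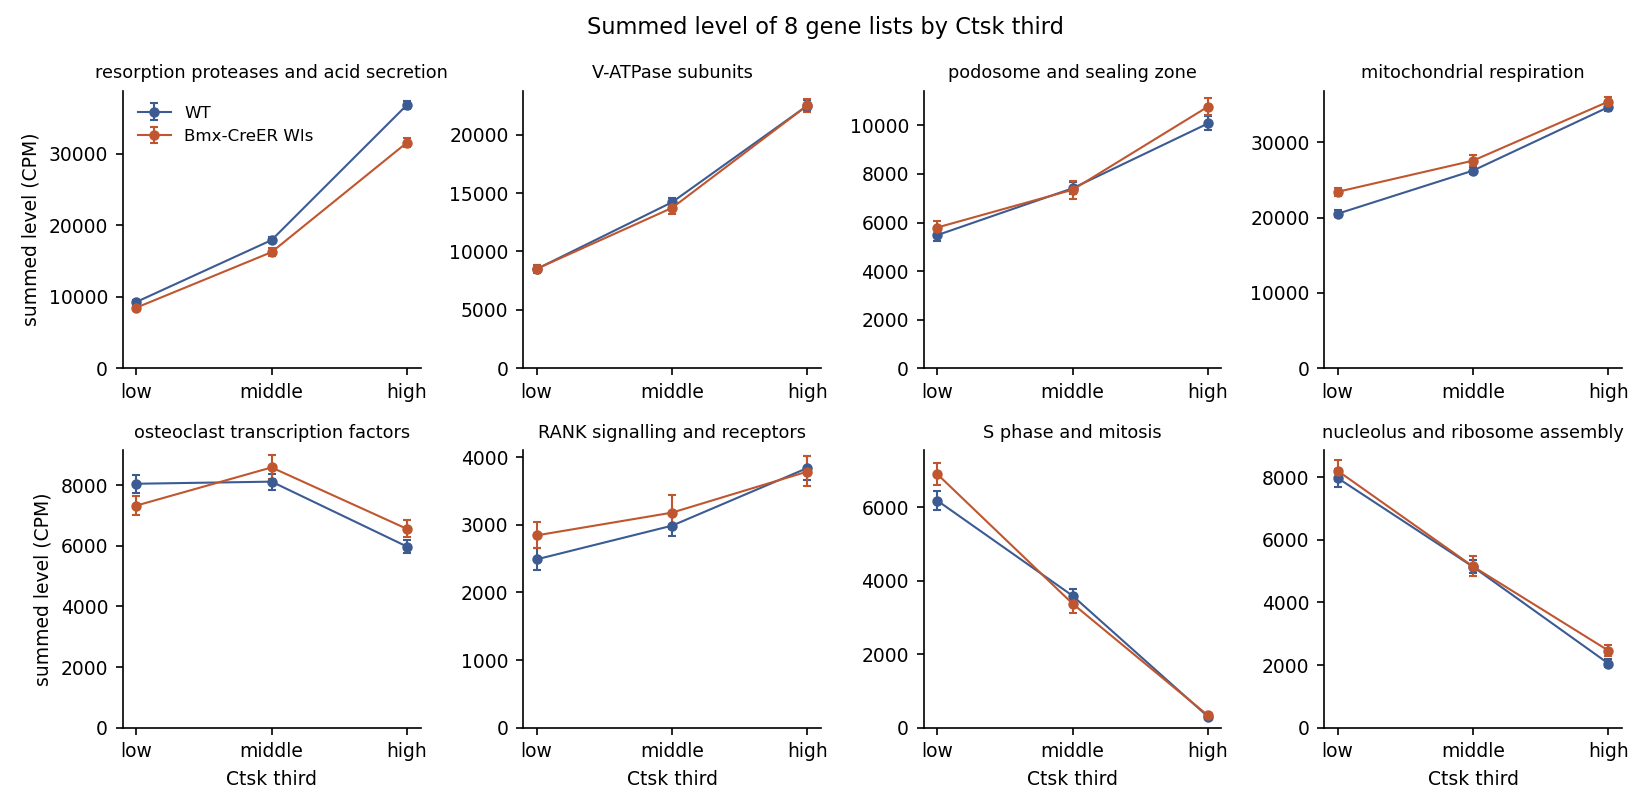
Summed CPM of all listed genes of 8 gene lists in low-, middle- and high-Ctsk cells of WT (blue) and Bmx-CreER Wls (orange), with 95% Poisson intervals. In WT, resorption genes stand at 9267 CPM at low and 36853 CPM at high Ctsk, and S phase and mitosis genes at 6187 and 306 CPM.

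The steepest genes had few UMIs at low Ctsk and many at high Ctsk. Ckb, the brain-type creatine kinase that regenerates ATP from phosphocreatine (GRCm38 chr12:111669355-111672338), was at 87.6, 545 and 4361 CPM in WT and 89.7, 794 and 3540.1 CPM in Bmx-CreER Wls. Its ratios were 49.8-fold (35 to 73.5) and 39.5-fold (27 to 60.2). Oscar was at 14.1, 80.1 and 758 CPM in WT and 23.3, 87.7 and 655 CPM in Bmx-CreER Wls. Mt3 (chr8:94152607-94154148) had no UMI in low-Ctsk WT cells and 369 in high-Ctsk WT cells. The ratio is 91.1 with the low-Ctsk group set to a floor of 3 counts, which is not a lower limit. In Bmx-CreER Wls it had 2 and 330 UMIs (ratio 159.5, 43.8 to 1323). Itgb3, the integrin chain of the podosome, was at 17, 169 and 655 CPM in WT and 23.3, 141 and 642 CPM in Bmx-CreER Wls. All 4 genes were already higher in middle-Ctsk than in low-Ctsk cells.

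Shares of cells with a UMI were compared after thinning each cell to 2000 UMIs. A Ckb UMI was in 20%, 55.2% and 91.7% of low-, middle- and high-Ctsk WT cells (30%, 78.3% and 100% before thinning) and in 5.3% of WT Col2a1-rich cells. In Bmx-CreER Wls the thinned shares were 13.5%, 60% and 93.5% (24.3%, 88.9% and 97.4% before thinning), against 5.14% in Col2a1-rich cells. An Oscar UMI was in 0%, 13.8% and 54.2% of thinned WT cells (8%, 31.7% and 82% before thinning) and in 0 WT Col2a1-rich cells. For Itgb3 the thinned WT shares were 2%, 13.8% and 56.2% (10%, 43.3% and 88% before thinning), against 0.988% in Col2a1-rich cells. The order from low to high Ctsk was the same before and after thinning for these genes. For Calcr, the calcitonin receptor, WT shares of 2%, 16.7% and 32% became 2%, 6.9% and 6.25% after thinning, and middle- and high-Ctsk cells were not told apart at this depth.

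The other genes among the 15 with the largest ratios were Nmb, St8sia6, Cd84, Tgm2, Ecm1, Rab38, Tnfrsf9, Map1lc3a, Atp1b1, Mst1r and Tspan7. Several encode surface or secreted proteins: Nmb is the peptide neuromedin B, Cd84 a SLAM-family receptor, Tnfrsf9 the receptor 4-1BB and Mst1r the receptor of macrophage-stimulating protein. Mst1r was at 25.4, 75.6 and 218 CPM in WT and 16.6, 82.8 and 235 CPM in Bmx-CreER Wls. Of these 11 genes, Mst1r (242 UMIs) and Map1lc3a (205 UMIs) had more than 200 UMIs in the 262 cells, and the others had fewer.

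Fusion and adhesion genes were less uniform. Ocstamp was at 237, 465 and 1187 CPM in WT and 233, 575 and 1079 CPM in Bmx-CreER Wls. Dcstamp was at 319, 585 and 1124 CPM in WT and 332, 492 and 1031 CPM in Bmx-CreER Wls. The other 6 measured fusion genes, among them Cd9, Cd47 and Sirpa, were not past 2-fold in both libraries. In the podosome list 4 of 16 were higher (Itgb3, Itgav, Itgb2 and Cttn), beside 6.54% of all measured genes. Src, the kinase that organises the sealing zone, was at 342, 412 and 327 CPM in WT and 382, 389.6 and 344 CPM in Bmx-CreER Wls. Rac2, a GTPase that acts on actin, missed the fold in Bmx-CreER Wls (2.55-fold and 1.99-fold).

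None of 11 measured transcription factors was past 2-fold along Ctsk in both libraries, beside 6.54% of all genes higher and 13.3% lower. Nfatc1 was at 2094, 2345 and 1861 CPM in WT and 2117, 2479 and 2037 CPM in Bmx-CreER Wls, with high-to-low ratios of 0.889 (0.805 to 0.981) and 0.962 (0.861 to 1.08). Mitf, a factor that drives lysosomal and osteoclast genes, was at 257, 211 and 79.6 CPM in WT and 226, 170.5 and 148 CPM in Bmx-CreER Wls. Jdp2, an AP-1 family factor, was at 1518, 1437 and 823 CPM in WT and 1332, 1159 and 967 CPM in Bmx-CreER Wls. Tnfrsf11a was at 203, 238 and 259.6 CPM in WT and 229, 189.9 and 315 CPM in Bmx-CreER Wls. In the RANK list, Oscar was the 1 gene of 15 past the fold upwards, and the kinase genes Map3k7 and Mapk14 were lower, shares near those over all genes. Repressors of osteoclast genes together were at 233 CPM in WT and 183 CPM in Bmx-CreER Wls, over all cells of the lineage. Most of these UMIs were of Id2, with 343 over both libraries, and it was not past the fold along Ctsk. The other repressors were scarcer, with 61 UMIs of Cebpb over both libraries, and 5 UMIs of Irf8 in WT and 4 in Bmx-CreER Wls.

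The 38 respiration genes together were higher at high Ctsk, 1.69-fold and 1.51-fold, at 20524, 26254 and 34689.8 CPM in WT and 23435, 27575 and 35423 CPM in Bmx-CreER Wls. The sum includes Ckb, described above, and without it the ratios were 1.48 (1.44 to 1.53) and 1.37 (1.32 to 1.41). Of 37 measured, 4 were past 2-fold, among them Ckb, Cox5a and Ndufa1, beside 6.54% of all genes. Of 9 measured glycolysis genes 0 were past the fold, and the 15 listed together were at 4946, 5470.1 and 5733 CPM in WT and 5296, 5615 and 6222 CPM in Bmx-CreER Wls. Iron genes, including the transferrin receptor Tfrc, also had 0 of 5. With 6.54% of all measured genes higher and 13.3% lower, nothing is read from the glycolysis and iron counts. The 8 listed iron genes together were 1.3-fold (1.21 to 1.4) higher at high Ctsk in WT and 1.34-fold (1.22 to 1.47) in Bmx-CreER Wls.

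At low Ctsk, cell cycle transcripts were abundant. All 22 measured S phase and mitosis genes were at least 2-fold lower at high Ctsk, beside 13.3% of all measured genes. The 36 listed genes together summed to 6187, 3595 and 306 CPM in WT and 6908, 3379.9 and 337 CPM in Bmx-CreER Wls. The high-to-low ratio was 0.0494 (0.0415 to 0.0584) in WT and 0.0488 (0.0397 to 0.0594) in Bmx-CreER Wls. Mki67 was at 339, 178 and 2.09 CPM in WT and 362, 122 and 6.42 CPM in Bmx-CreER Wls. Top2a, the topoisomerase that untangles chromosomes, was at 582, 340.4 and 27.2 CPM in WT and 768, 336 and 12.8 CPM in Bmx-CreER Wls. Ccnb1, a mitotic cyclin, had 88 UMIs in low-Ctsk and 0 in high-Ctsk WT cells. The low-to-high ratio is 39.6 with the high-Ctsk group set to a floor of 3 counts, which is not a lower limit. Mcm6, a subunit of the replicative helicase, was at 209, 102 and 29.3 CPM in WT and 352, 117 and 25.7 CPM in Bmx-CreER Wls.

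In single cells, cell cycle UMIs per 10000 had medians of 38.2, 7.85 and 1.51 in low-, middle- and high-Ctsk WT cells and of 53, 6.46 and 1.74 in Bmx-CreER Wls. Low-Ctsk cells spread widely, from 1.08 to 206 in WT and from 1.3 to 176 in Bmx-CreER Wls, so some of them had few of these transcripts too. High-Ctsk cells reached at most 39.8 and 42. A Mki67 UMI was in 36%, 13.8% and 2.08% of thinned WT cells (58%, 31.7% and 2% before thinning) and in 27%, 20% and 6.45% of thinned Bmx-CreER Wls cells (59.5%, 25.9% and 5.26% before thinning). Among thinned Col2a1-rich cells, a population that can divide, the share was 15.2% and 16.5%.

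**Figure D4:**
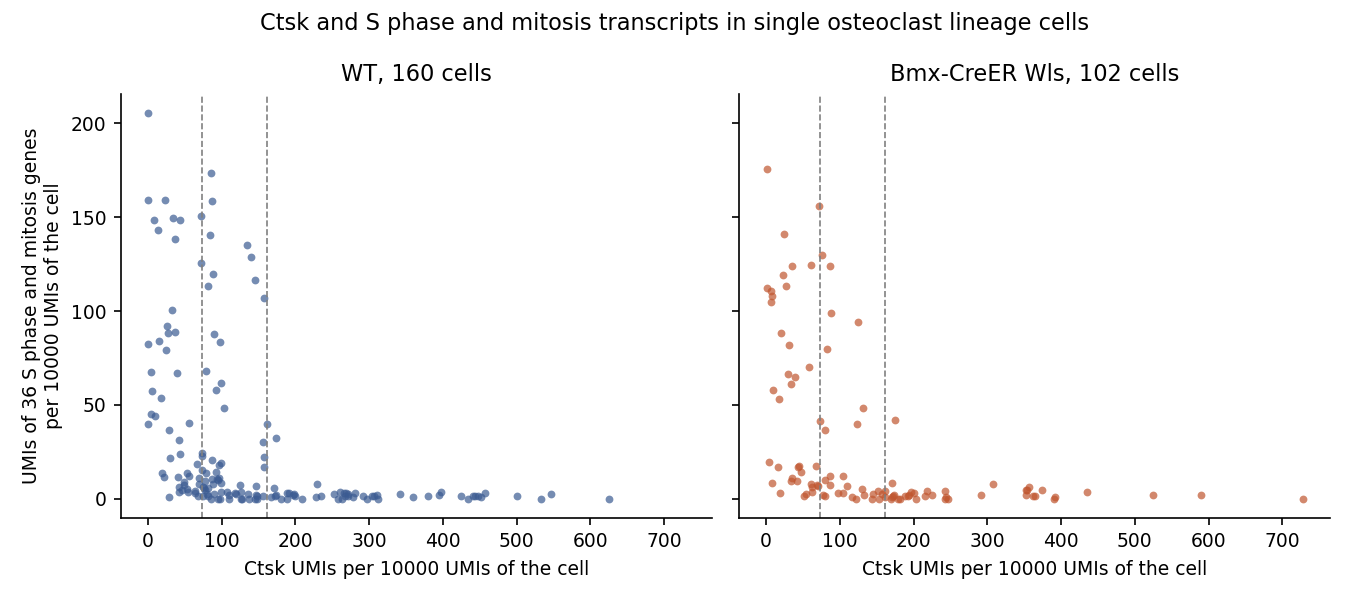
UMIs of the 36 S phase and mitosis genes against Ctsk UMIs, both per 10000 UMIs of the cell, for each WT (left, 160 cells) and Bmx-CreER Wls (right, 102 cells) osteoclast lineage cell, with dashed lines at the Ctsk cuts of 73.3 and 160.8. Cells to the right of the upper cut reach at most 39.8 and 42 cell cycle UMIs per 10000, and cells to its left reach 206 and 176.

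Other genes stood higher at low Ctsk. In a list of nucleolar genes drawn up after its values were seen, 11 of 14 were lower at high Ctsk, beside 13.3% of all measured genes. Npm1, the nucleolar protein nucleophosmin, was at 2628, 1755 and 607 CPM in WT and 2721, 1622 and 752 CPM in Bmx-CreER Wls. S100a4, a calcium-binding protein listed with the monocyte markers, was at 3058, 2714 and 1099 CPM in WT and 3675, 3039 and 1597 CPM in Bmx-CreER Wls. Ctss was 6.43-fold (3.78 to 11.6) and 7.81-fold (3.88 to 17.8) higher at low than at high Ctsk. Cd68, a lysosomal glycoprotein listed with the same markers, ran the other way, at 732, 1595 and 3028 CPM in WT and 761, 1768 and 3100 CPM in Bmx-CreER Wls. Of the 4 monocyte markers measured, 2 were thus lower at high Ctsk, 1 was higher and Itgam was neither, and the sum of the 13 listed markers had high-to-low ratios of 1.04 (0.970 to 1.11) and 1.01 (0.941 to 1.09).

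The 15 genes with the smallest ratios were Mki67, Ccna2, Col10a1, 2810417H13Rik, Cenpf, Racgap1, Cenpe, Rrm2, Ccnb1, Birc5, Ube2c, Hspa1b, Top2a, Spc24 and Bub1. Most of them act in replication or division. Ube2c, whose promoter is shown above, was at 539.8, 325 and 4.19 CPM in WT and 409, 209 and 16.1 CPM in Bmx-CreER Wls. Hspa1b is a heat shock gene that is induced by stress. Col10a1, the collagen of hypertrophic chondrocytes, was at 1082, 4.45 and 6.28 CPM in WT and 239, 0 and 6.42 CPM in Bmx-CreER Wls. Its log2 ratio, in the less extreme library, was -5.22 with all cells and -1.78 without the 8 cells that held over 2% markers of other types.

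The steps between the groups differed by direction. Over genes with UMIs in every group, those higher at high Ctsk had median log2 steps of 0.78 from low to middle and 0.92 from middle to high Ctsk in WT, and 0.86 and 0.80 in Bmx-CreER Wls. Genes lower at high Ctsk had steps of -0.53 and then -1.11 in WT, and of -0.60 and -1.05 in Bmx-CreER Wls. Few genes peaked or dipped in between. Klhl9, Plcb4, Txndc11 and Zbtb38 were at least 1.5-fold higher in middle-Ctsk cells than in both other groups of both libraries, and Col9a1, Cpe, Slc43a3 and Tpd52 at least 1.5-fold lower (named after their values were seen). Klhl9, an adaptor of a ubiquitin ligase, was at 105, 185 and 117 CPM in WT and 119.6, 205 and 73.9 CPM in Bmx-CreER Wls.

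Among the signals listed as secreted by osteoclasts, 0 of 6 measured were past 2-fold along Ctsk in both libraries. Over all measured genes 6.54% were higher and 13.3% lower, so nothing about the list is read from these few genes. Sema4d was at 401, 607 and 884 CPM in WT and 532, 711 and 858 CPM in Bmx-CreER Wls. Pdgfb was at 206, 187 and 274 CPM in WT and 159, 205 and 286 CPM in Bmx-CreER Wls. Ccl9 was at 1642, 2351 and 2161 CPM in WT and 1824, 2381 and 3543 CPM in Bmx-CreER Wls. Spp1, the bone matrix protein osteopontin, had its lowest level at low Ctsk in Bmx-CreER Wls but not in WT, at 331, 109 and 268 CPM in WT and 6.65, 63.3 and 263 CPM in Bmx-CreER Wls. In low-Ctsk WT cells, chondrocyte markers summed to 4960 CPM and osteoblast markers to 1365 CPM, and their part in its level was not tested.

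Single genes varied widely from cell to cell within a library. Mmp9 had quartiles of 53.2 and 182 UMIs per 10000 in WT and of 44.7 and 156 in Bmx-CreER Wls. Nfatc1 had quartiles of 12.9 and 28.4 in WT and of 10.7 and 32.6 in Bmx-CreER Wls, and had no UMI in 3 and 9 cells. Ckb had no UMI in 48 of 160 and 32 of 102 cells and reached 116 and 106 per 10000. Before thinning, 25.9% and 27.3% of Col2a1-rich cells also had a Nfatc1 UMI, and 8.27% and 8.08% a Ckb UMI. Ocstamp had no UMI in 27 and 14 cells, Oscar in 96 and 59 and Mt3 in 110 and 67. A Mt3 UMI was in 40 of 50 high-Ctsk and 0 of 50 low-Ctsk WT cells, and in 27 of 38 and 2 of 37 such cells of Bmx-CreER Wls.

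Between the libraries, the question is whether osteoclast lineage cells differ when arterial Wls is targeted. With 1 library per condition, genotype, library, embryos and sex composition cannot be told apart. Of 3595 genes, 13 (0.362%) were at least 2-fold higher and 16 (0.445%) at least 2-fold lower in Bmx-CreER Wls, and the median log2 ratio was 0.00169. No gene of the resorption, V-ATPase, fusion, RANK, transcription factor, podosome, osteopetrosis or respiration lists was past 2-fold. The summed V-ATPase level was 0.964 (0.942 to 0.985) times and the podosome level 1.03 (0.995 to 1.06) times that of WT. Resorption genes together were at 0.851 (0.834 to 0.867) times. Mmp9, which held most of their UMIs, was at 0.769 (0.749 to 0.788) times. The median log2 ratio of the 12 measured resorption genes was 0.0042, so the lower sum does not describe the list gene by gene. Spi1, the factor PU.1 of myeloid cells, was at 449.7 CPM in WT and 665 CPM in Bmx-CreER Wls (ratio 1.48, 1.31 to 1.67). Fth1, the ferritin heavy chain, was at 2717 and 1836 CPM (ratio 0.676, 0.636 to 0.718), and in the other kept cells at 991 and 697 CPM.

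The genes that stood highest in Bmx-CreER Wls were Gm9843, Rrm2, Rps12-ps9, Tuba1b, 2810417H13Rik, Il2rg, Rps28 and Stra13. Gm9843, at 151 CPM in WT and 377 CPM in Bmx-CreER Wls (ratio 2.5, 2.08 to 3.01), stood 2.37-fold higher in the other kept cells too. Rps12-ps9 (2.15-fold, 1.73-fold in the others), Rps28 (1.82-fold, 1.6-fold in the others) and the tubulin gene Tuba1b (1.98-fold, 1.54-fold in the others) were likewise higher outside these cells. Reads of ribosomal protein genes and pseudogenes such as Rps28 and Rps12-ps9 can be hard to assign between near-identical copies, which was not tested. Rrm2, a subunit of ribonucleotide reductase, was at 73.4 and 163 CPM (ratio 2.22, 1.69 to 2.92), with a ratio of 0.911 in the others. Il2rg, the common cytokine receptor chain, was at 74.9 and 138 CPM (ratio 1.84, 1.39 to 2.45), with a ratio of 0.800 in the others. At low Ctsk, where Rrm2 was highest, it was at 122 CPM in WT and 349 CPM in Bmx-CreER Wls.

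The genes that stood lowest in Bmx-CreER Wls were Col10a1, Matn1, Col9a3, Col9a1, Mt2, Igf2, Col11a1 and Col11a2. Apart from the metallothionein Mt2 and the growth factor Igf2, these are cartilage matrix genes, and 7 of 10 measured chondrocyte markers were past 2-fold lower. The 13 listed chondrocyte markers summed to 2986 CPM in WT and 1364 CPM in Bmx-CreER Wls (ratio 0.457, 0.427 to 0.488). Without the 8 cells over 2% markers of other types they summed to 115 and 322 CPM, so the direction turned (ratio 2.79). Without these cells, 5 genes in place of 16 were past 2-fold lower. Mt2, at 162 and 69.7 CPM (ratio 0.429, 0.314 to 0.578), kept its direction without them (ratio 0.415) and had a ratio of 0.709 in the other kept cells. Igf2 moved to 0.736 without them, from 0.446.

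**Figure D5:**
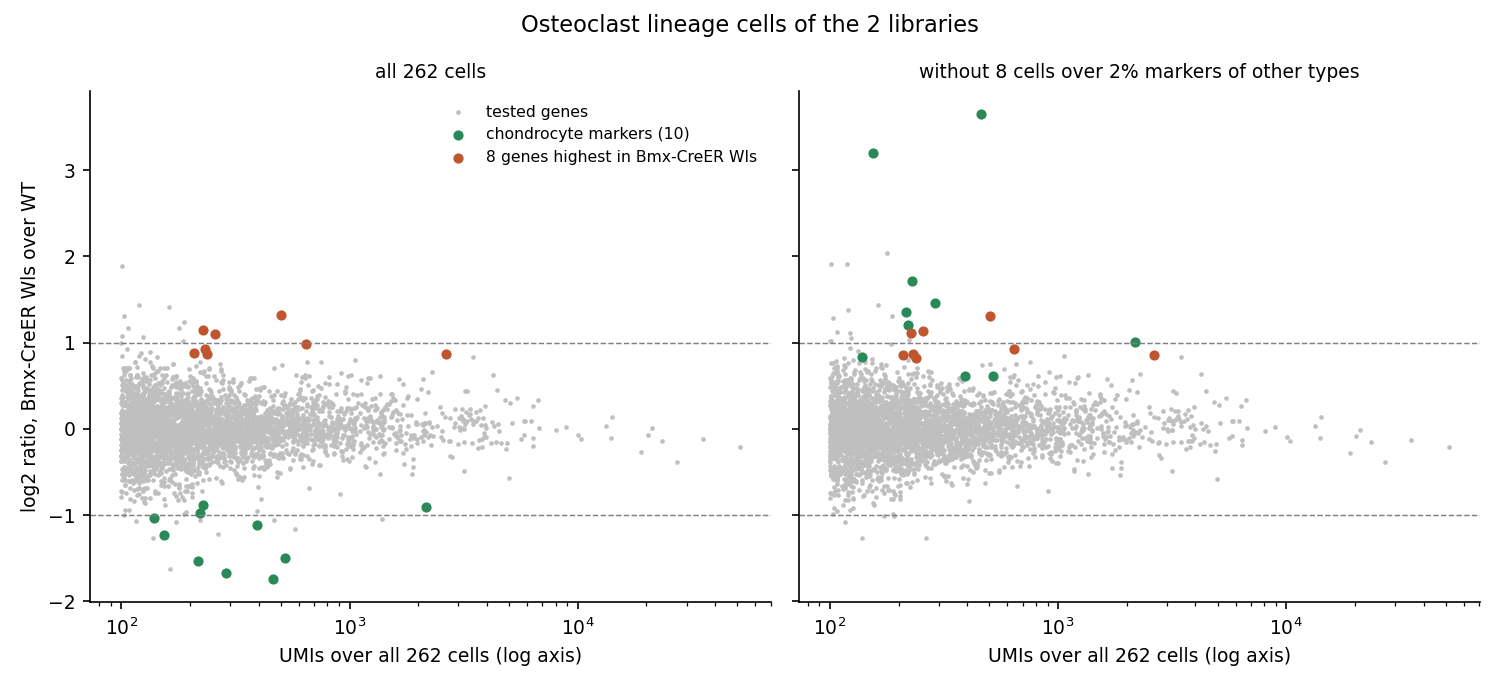
Log2 ratio of summed CPM, Bmx-CreER Wls over WT, against the UMIs of each gene in the 262 osteoclast lineage cells (log axis), for 3595 genes, with all cells (left) and without the 8 cells over 2% markers of other types (right). The 10 chondrocyte markers (green) all lie below 0 on the left and above 0 on the right, and the 8 genes highest in Bmx-CreER Wls are in orange.

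Low-, middle- and high-Ctsk cells made up 31.2%, 37.5% and 31.2% of the WT cells and 36.3%, 26.5% and 37.3% of the Bmx-CreER Wls cells. Within these groups, S phase and mitosis genes of Bmx-CreER Wls were at 1.12 (1.05 to 1.19), 0.940 (0.859 to 1.03) and 1.1 (0.850 to 1.43) times the WT level. Over all cells the ratio was 1.14 (1.09 to 1.2).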

How the data were processed

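Single-cell RNA was measured in 1 WT and 1 Bmx-CreER Wls library of fetal femoral marrow. The deposited values were whole UMI counts for each gene in each barcode, which the authors made by aligning to mm10. The submitters' processing notes name bcl2fastq 2.19.1.403, STAR 2.7.1a, featureCounts 1.6.4 of Subread and UMI-tools 1.0.1. The reads come from the 3′ end, so levels were not compared between genes.

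Deposited counts were read with Python 3.11.15, numpy 2.4.6, scipy 1.17.1, pandas 2.3.3 and scanpy 1.11.5, and plotted with matplotlib 3.10.9. The scripts were tested on simulated data. A barcode was kept with between 200 and 5000 detected genes (both excluded) and mitochondrial UMIs under 30%. Counts were summed over cells of a group and scaled to 1000000. Intervals were exact Poisson for CPM, Clopper-Pearson for shares and exact conditional binomial for ratios, at 95%. A gene was counted as higher or lower when at least 2-fold in both libraries, among genes with at least 100 UMIs. A group with 0 counts was set to a floor of 3 counts for ratios. Doublets were kept: Scrublet's automatic threshold marked 39 WT cells (0.680%) and 0 Bmx-CreER Wls cells and was not used, and leaving out the highest 5% of scores was an alternative.

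The genes named were the 20 with the largest ratio against the other cells, 15 each way along Ctsk and 8 each way between the libraries (at least 200 UMIs for the first and last), leaving out mitochondrial, haemoglobin, Xist and Y-linked genes, and 2 to 4 examples of each list. A few genes that the rule or the lists would name are not reported here. Xist and Ddx3y are given apart, to describe the libraries. The cells and gene lists were chosen with earlier results of these data known, and 2 of the lists (lysosomal and nucleolar) after their values were seen. Besides 18 planned settings, 1 was added after seeing the data, without cells whose barcode occurs in both libraries.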

Additional observations from a re-analysis of the deposited data

How the results depend on the processing

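No paired analysis was possible because each condition had 1 library, and for the same reason no replicate could be left out. Of 902 values under alternative settings, 824 were of genes and lists. Of these, 11 reversed, 114 moved outside their interval and 699 stayed within it. The others were counts and shares, which cannot reverse, and 14 of them moved past a set limit while 64 did not. With at least 1000 UMIs and a mitochondrial share under 10%, the WT share was 2.09% of kept cells, 156 genes were higher and 191 lower along Ctsk, 6 were higher in Bmx-CreER Wls, and the transcription factor sum in Bmx-CreER Wls had a high-to-low log2 ratio of 0.11 in place of -0.16. Lower UMI filters test more genes: with 20 UMIs, 2783 were higher than in other cells and 1715 lower than in macrophages, and with 30 UMIs, 378 were higher and 1061 lower along Ctsk. A filter of 500 UMIs left 1 gene higher and 3 lower in Bmx-CreER Wls. Setting the 20% of cells lowest in Ctsk against the 20% highest gave 723 lower genes. Genes lower in Bmx-CreER Wls numbered 8 with a marker sum of at least 5 UMIs, 7 without the highest Scrublet scores and 5 without cells over 2% markers of other types.

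The log2 ratio of Col10a1, Bmx-CreER Wls over WT, turned from -1.74 to 3.51 with a marker sum of at least 20, 3.52 with at least 20 per 10000 UMIs, 3.63 without the highest Scrublet scores and 3.65 without cells over 2% markers of other types. Without the latter cells, Matn1 was at 1.46, Col9a3 at 1.35, Col9a1 and Col11a1 at 0.61 and Col11a2 at 1.03, and with a marker sum of at least 5 Col11a1 was at 0.067. Beyond the sets of cells themselves, the cause was not tested. With 160 and 102 cells and a few UMIs per gene and cell, low genes carry wide intervals.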
